A study of Arabidopsis thaliana with 9 samples.

Results

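The SHORT-ROOT and SCARECROW network comprised 7 Arabidopsis thaliana genes taken by gene identifier: SHORT-ROOT (SHR), SCARECROW (SCR), SCARECROW-LIKE 23 (SCL23), SCARECROW-LIKE 3 (SCL3), JACKDAW (JKD), MAGPIE (MGP) and NUTCRACKER (NUC). Of these, 6 were among the 18861 genes listed in any of the deposited tables, and 4 were listed in all 3 tables. MGP was listed in none. Leaves of wild-type Col-0 plants, callus of wild-type Col-0 (WT callus) and callus of the emf2 mutant were each sequenced as 3 libraries, which the labels call biological replicates. Rosette leaves were taken from plants that spent 1 week on Murashige and Skoog medium under constant light, then 2 weeks in soil at 21 °C under days of 16 h. Callus, an unorganized mass of dividing cells, was started from cotyledons on callus-inducing medium that held the auxin 2,4-D (2.2 µM) and a cytokinin, kinetin (0.46 µM). It spent its first days in light at 23 °C, was then moved to darkness, and was 6 to 8 weeks old when sampled. The mutant carries the allele emf2-1, per the file headers, in a gene for a subunit of Polycomb Repressive Complex 2, the enzyme complex that places the repressive histone mark H3K27me3. Leaf and callus differ in organ, light, temperature, age, medium and growth hormones at once, so these cannot be told apart, and nothing in the labels says whether plants or calli were pooled. The values are RPKM, read numbers normalized for gene length and library size. A gene appears in a group's table if its mean there exceeded 1 RPKM, and is called listed in that case.

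As background, SHR is a GRAS-family transcription factor that is transcribed in the stele of the root, moves outward into the adjoining cell layer and is held in the nucleus there by SCR, a second GRAS protein. Together they pattern the ground tissue, specify the endodermis and maintain the quiescent centre of the root stem cell niche. JKD, MGP and NUC are zinc finger proteins of the INDETERMINATE DOMAIN (IDD) family that bind DNA and GRAS proteins, and JKD limits the range of SHR movement. SCL3 is a target of SHR and SCR that acts in gibberellin responses against the DELLA repressors. SCL23 is the closest relative of SCR, and SHR, SCR and SCL23 act in the bundle sheath of the leaf.

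The genes lie apart in the genome. In the TAIR10.1 annotation of RefSeq, whose nuclear chromosomes are those of TAIR10, SHR (AT4G37650) is on chromosome 4 from 17691687 to 17693859 and SCR (AT3G54220) on chromosome 3 from 20069987 to 20072878. SCL23 (AT5G41920) is on chromosome 5 from 16779643 to 16781424, JKD (AT5G03150) on chromosome 5 from 745421 to 749028, and NUC (AT5G44160) on chromosome 5 from 17772856 to 17775749. All of these are on the forward strand. SCL3 (AT1G50420), on chromosome 1 from 18677694 to 18680300, and MGP (AT1G03840), on chromosome 1 from 967470 to 970334, are on the reverse strand. No member overlapped another annotated gene, so reads of a neighbour on either strand could not be counted into them on that account.

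The 250 bases before the annotated start of 5 members are shown because in emf2 against WT callus SHR, SCR and JKD stood higher with no overlap between libraries, while SCL3 and SCL23 did not. The windows are given 5′ to 3′ on the strand of the gene, from RefSeq TAIR10.1, and capitals mark GAGAGA or its reverse complement TCTCTC, the repeat that GAGA-type factors bind. Their positions are chr4:17691437-17691686 (+) for SHR, chr3:20069737-20069986 (+) for SCR, chr5:745171-745420 (+) for JKD, chr1:18680301-18680550 (-) for SCL3 and chr5:16779393-16779642 (+) for SCL23.
SHR: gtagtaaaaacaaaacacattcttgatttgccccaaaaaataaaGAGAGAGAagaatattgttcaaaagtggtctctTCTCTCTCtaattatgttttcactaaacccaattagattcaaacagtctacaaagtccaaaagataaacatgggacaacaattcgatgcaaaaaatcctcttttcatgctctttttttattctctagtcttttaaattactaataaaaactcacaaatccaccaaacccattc
SCR: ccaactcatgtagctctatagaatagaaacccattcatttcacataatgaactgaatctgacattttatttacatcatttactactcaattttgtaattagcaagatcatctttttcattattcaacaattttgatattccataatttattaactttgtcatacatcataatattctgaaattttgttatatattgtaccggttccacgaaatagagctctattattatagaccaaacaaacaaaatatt
JKD: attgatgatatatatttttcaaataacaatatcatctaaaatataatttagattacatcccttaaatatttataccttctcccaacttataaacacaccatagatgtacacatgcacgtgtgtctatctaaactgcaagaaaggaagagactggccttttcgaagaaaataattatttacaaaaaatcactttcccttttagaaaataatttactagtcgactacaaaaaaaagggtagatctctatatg
SCL3: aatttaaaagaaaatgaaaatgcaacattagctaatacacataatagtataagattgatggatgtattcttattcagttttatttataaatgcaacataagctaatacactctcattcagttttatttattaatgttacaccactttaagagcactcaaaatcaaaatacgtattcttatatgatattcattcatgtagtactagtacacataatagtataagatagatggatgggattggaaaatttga
SCL23: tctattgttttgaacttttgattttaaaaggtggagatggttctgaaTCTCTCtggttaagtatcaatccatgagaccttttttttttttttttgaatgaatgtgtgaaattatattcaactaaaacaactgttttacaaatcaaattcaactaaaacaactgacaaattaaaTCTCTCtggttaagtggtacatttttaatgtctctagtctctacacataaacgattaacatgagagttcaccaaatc
Both strands were searched. SHR held 4 matches, which overlap in pairs that begin 206 and 173 bases before its start, and SCL23 held 2 separate matches, while SCR, JKD, SCL3, MGP and NUC held none. A match was present in 20.6% of the 27437 windows of 250 bases before protein-coding genes. The telobox AAACCCTA, present in 4.49% of these windows, the maize ID1-type site TTTGTCG (3.54%) and AGACAA, a core that IDD proteins bind (19.6%), were in none of the 7 windows. These counts describe letters in a short window and say nothing on whether a factor binds.

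Reads recovered from the RPKM values came to between 38.7 and 52.6 M per library, and the members' values rested on 108 to 8752 reads. Counting error was thus small beside the spread between libraries, except for the lowest values and for JKD in emf2 callus. There the spread was only 4.65% of the mean, on 1204 to 1677 reads. Leaf replicate 3 stood apart from the other leaf libraries on the second principal component (-30.4 against 10.5 and 19.9), and EMF2 itself read 29.6 RPKM there against 5.50 and 6.07 in leaf replicates 1 and 2. EMF2 was between 6.78 and 7.55 RPKM in WT callus and between 13.0 and 16.3 RPKM in emf2 callus, and since the labels do not describe the lesion, this level does not check the genotype. Markers of green mesophyll summed to between 37386 and 58902 RPKM in leaf and to at most 45.4 RPKM in any callus library. All 6 markers of the root stem cell niche and 4 of 6 markers of the root epidermis and cap were listed in both calli and none of either in leaf. The niche markers summed to between 115 and 210 RPKM in WT callus and between 183 and 228 RPKM in emf2 callus. In bulk tissue a lower share of cells of a type and less RNA per cell cannot be told apart.

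**Figure D1:**
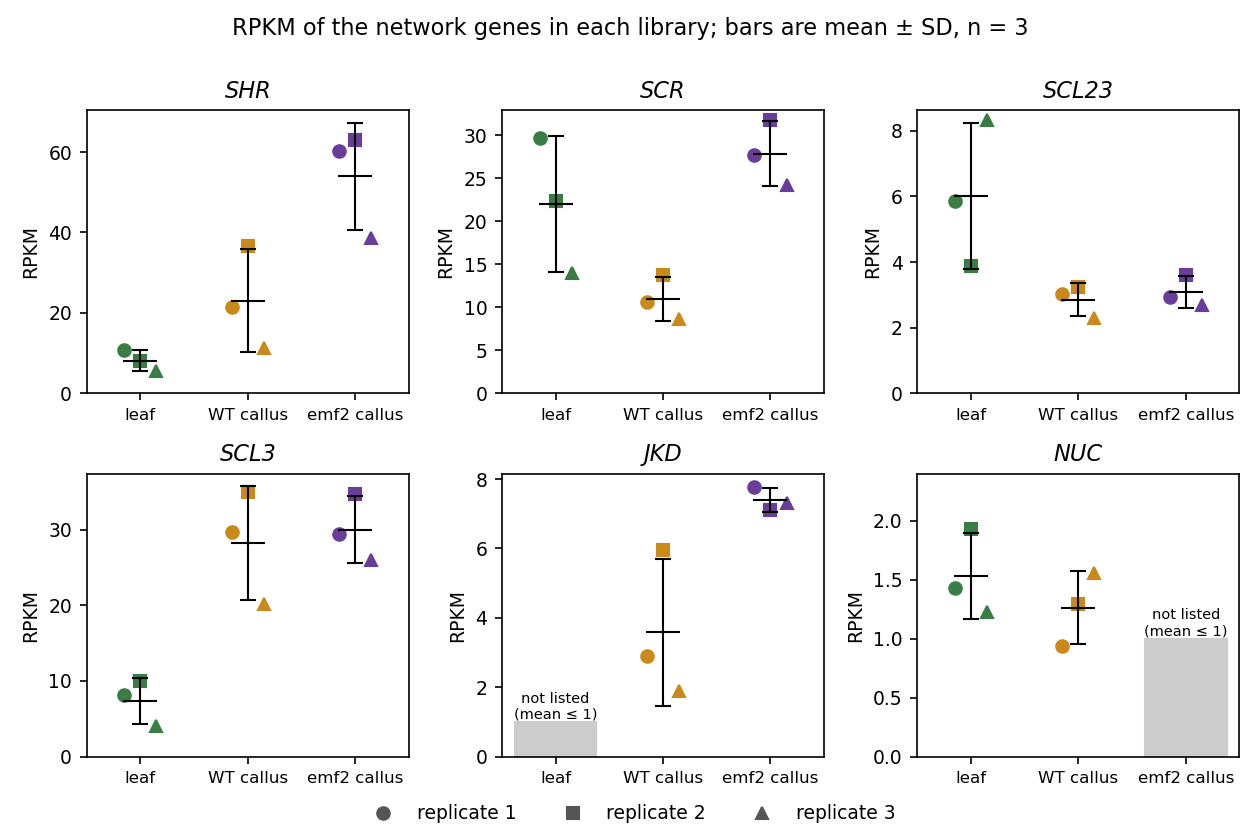
RPKM of each listed network gene (vertical axis, starting at 0) in the 3 libraries of leaf, WT callus and emf2 callus; symbols are replicates, bars the mean ± SD with n = 3, and grey blocks mark groups whose table does not list the gene. SHR and SCR are highest on average in emf2 callus, SCL3 is higher in both calli than in leaf, and SCL23 is higher in leaf.

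SHR, the mobile regulator at the head of the network, was lowest in leaf. It measured 10.9, 7.93 and 5.59 RPKM in leaf replicates 1, 2 and 3 (mean 8.12 ± 2.64, SD, n = 3). In WT callus it measured 21.4, 36.6 and 11.2 RPKM (mean 23.1 ± 12.8, SD, n = 3), and in emf2 callus 60.1, 63.1 and 38.7 RPKM (mean 54.0 ± 13.3, SD, n = 3). No 2 of the 3 groups overlapped, although the lowest WT callus library was close to the highest leaf library. SHR moved from the 42.3 percentile of listed genes in leaf to the 80.1 percentile in WT callus and the 93.1 percentile in emf2 callus. Its WT callus libraries differed by 3.26-fold from the lowest to the highest, the widest such range of any member within a group.

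SCR, the partner that retains SHR in the nucleus, followed another order and was lowest in WT callus. Leaf libraries held 29.7, 22.3 and 14.0 RPKM (mean 22.0 ± 7.88, SD, n = 3), WT callus 10.6, 13.7 and 8.62 RPKM (mean 11.0 ± 2.57, SD, n = 3) and emf2 callus 27.7, 31.7 and 24.2 RPKM (mean 27.9 ± 3.79, SD, n = 3). The WT callus libraries lay below all others, with a narrow gap of 13.7 to 14.0 RPKM to leaf, while leaf and emf2 callus overlapped. SCL23, the relative of SCR, had 5.86, 3.88 and 8.32 RPKM in leaf (mean 6.02 ± 2.23, SD, n = 3). It was at 3.03, 3.25 and 2.28 RPKM in WT callus (mean 2.85 ± 0.504, SD, n = 3) and at 2.95, 3.62 and 2.70 RPKM in emf2 callus (mean 3.09 ± 0.474, SD, n = 3). Both calli lay below leaf and overlapped each other. Leaf replicate 3 was the highest leaf library for SCL23 and the lowest for SCR, SHR, SCL3 and NUC. Of all genes listed in leaf, it was the lowest library for 48.9% and the highest for 34.8%.

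SCL3, the target gene that acts in gibberellin responses, was higher in both calli than in leaf. It was at 8.14, 9.94 and 3.98 RPKM in leaf (mean 7.35 ± 3.06, SD, n = 3). WT callus held 29.7, 35.0 and 20.1 RPKM (mean 28.3 ± 7.53, SD, n = 3) and emf2 callus 29.4, 34.7 and 26.0 RPKM (mean 30.0 ± 4.38, SD, n = 3). Every callus library was at least 20.1 RPKM and every leaf library at most 9.94 RPKM, and the calli overlapped each other.

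Among the zinc finger partners, JKD was not listed in leaf, where 1 RPKM would stand for 80.6 to 109 reads of this gene. JKD measured 2.89, 5.96 and 1.90 RPKM in WT callus (mean 3.58 ± 2.12, SD, n = 3) and 7.77, 7.10 and 7.30 RPKM in emf2 callus (mean 7.39 ± 0.343, SD, n = 3). The emf2 libraries were all above the wild-type ones and varied by 1.09-fold, against 3.14-fold in WT callus. NUC was near the listing limit, with 1.43, 1.93 and 1.22 RPKM in leaf (mean 1.53 ± 0.363, SD, n = 3) and 0.942, 1.29 and 1.56 RPKM in WT callus (mean 1.26 ± 0.308, SD, n = 3), groups that overlapped. It was not listed in emf2 callus, where 1 RPKM would stand for 135 to 193 of its reads. The mean of MGP did not exceed 1 RPKM in any group.

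Per gene length, the order of levels changed between groups. In leaf SCR was the highest member in every library and NUC the lowest, while SHR, SCL3 and SCL23 changed places between libraries. In WT callus SCL3 led in replicates 1 and 3 and SHR in replicate 2. SCR came next in every library, followed by JKD and SCL23, which changed places, and by NUC. In emf2 callus SHR led in all 3 libraries. SCL3 was slightly above SCR in each of them, although the ranges of these genes overlapped, and JKD stood above SCL23. The length that the authors divided by is not given in the sources used here, so the order between genes rests on it. The recovered reads imply 3364 bases for JKD and 1497 for SCL23, against annotated exons of 2290 and 1782 bases. With exon lengths JKD would thus stand higher relative to SCL23 than given here.

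WT callus was compared with leaf for 5 members listed in both groups. With limma on log2(RPKM + 1) and Benjamini-Hochberg adjustment over the 14780 genes listed in both groups, 4 of the 5 passed at an adjusted p under 0.05, against 65.4% of all genes tested, so a member that passed was no exception. SCL3 and SHR rose, as did 33.6% of all genes, and SCR and SCL23 fell, as did 31.8%. The median difference was -0.16 over the 5 members and 0.06 over all genes. SCL3 rose by 1.85 ± 0.31 (SE, log2; adjusted p = 0.00102), with means 3.85-fold apart. SHR rose by 1.29 ± 0.41 (adjusted p = 0.0224), with means 2.84-fold apart. SCR fell by 0.91 ± 0.27 (adjusted p = 0.0177) and SCL23 fell by 0.82 ± 0.23 (adjusted p = 0.0136), to 0.498 and 0.474 of their leaf means. NUC differed by -0.16 ± 0.17 (adjusted p = 0.446), with a 95% interval from -0.58 to 0.26. JKD, listed in callus alone, was 1.1 ± 0.22 above the 1 RPKM that its absence from the leaf table allows (adjusted p = 0.00424), and 69.4% of 1923 genes listed in WT callus alone passed this test. Its listing already put its callus mean above 1 RPKM, so the direction was fixed beforehand and no leaf value entered. The listing likewise fixed the direction of every later test against the bound. The libraries of the groups did not overlap for 4 of the 5 members, as for 68.9% of all genes. Markers of the leaf bundle sheath, the tissue in which SCR and SCL23 act in leaves, were listed in leaf for 2 of 3 genes with a sum of 34.1 to 42.5 RPKM and in callus for none. Of 7 vascular markers, 6 were listed in leaf and 4 in WT callus. SUC2, a phloem sucrose transporter, was at 160 to 210.1 RPKM in leaf and not listed in callus, and SEOR1, XCP2 and CESA4 fell, whereas ATHB8, a procambium gene, rose from a mean of 4.70 to 30.8 RPKM (2.45, adjusted p = 6.13e-05). The part of these markers in the differences of the members was not tested.

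The call for SHR was lost when leaf replicate 2 (1.30, adjusted p = 0.0551), leaf replicate 3 (1.08, adjusted p = 0.0653), WT callus replicate 1 (1.27, adjusted p = 0.0569) or WT callus replicate 2 (0.90, adjusted p = 0.0633) was left out of the limma fit. For SCR the call was lost without leaf replicate 1 (-0.67, adjusted p = 0.0571), leaf replicate 2 (-0.87, adjusted p = 0.0522) or WT callus replicate 3 (-0.76, adjusted p = 0.0600), and without leaf replicate 3 the difference was -1.18 (adjusted p = 0.00203). The deposited denominators differ from the library totals by a factor that depends on the group. With values scaled by the totals of the recovered reads, the median over all genes moved from 0.06 to 0.82, and SCR (-0.06, adjusted p = 0.839) and SCL23 (-0.11, adjusted p = 0.721) no longer passed, while SHR (2.11) and SCL3 (2.66) did. Relative to that median the differences were -0.88 for SCR, -0.93 for SCL23, 1.28 for SHR and 1.84 for SCL3, against -0.97, -0.89, 1.23 and 1.79 relative to the median of the deposited scaling. With that scaling 9025 genes rose and 2575 fell, against 4969 and 4703 with the deposited one.

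**Figure D2:**
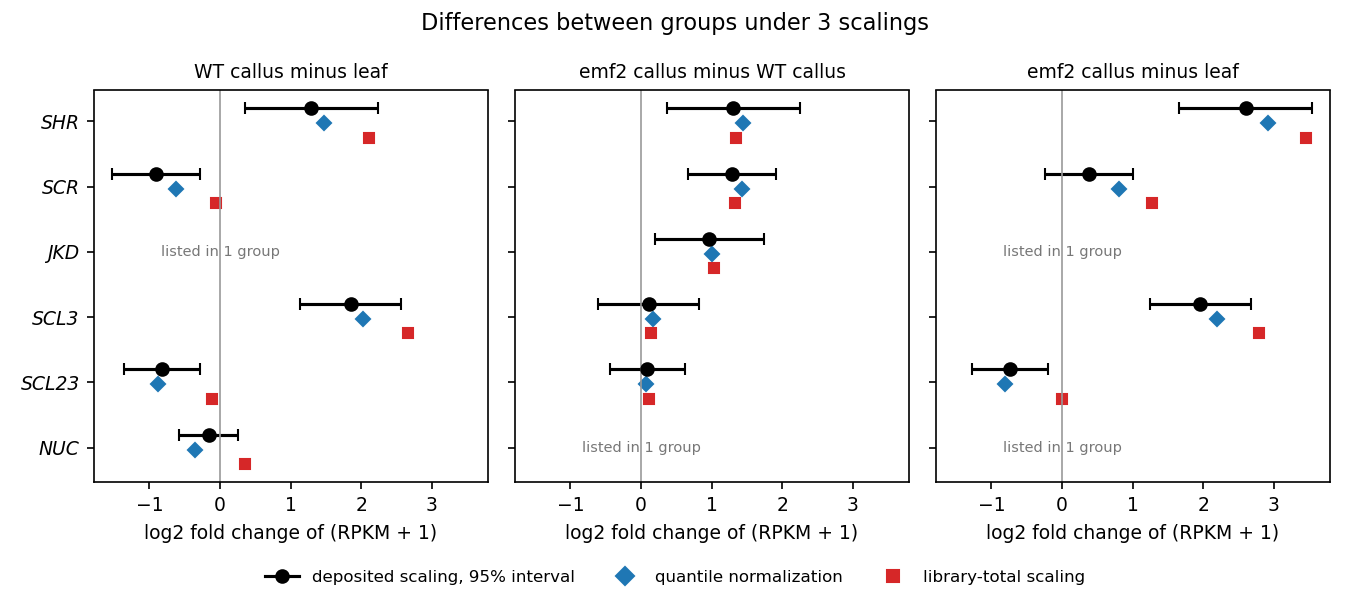
Log2 fold change of (RPKM + 1) for each member (horizontal axis) in the 3 contrasts; black points are the deposited scaling with 95% intervals, blue diamonds quantile normalization and red squares scaling by recovered library totals. The scalings nearly coincide between the calli, whereas library totals shift every contrast with leaf to the right, bringing SCR and SCL23 to about 0 in WT callus against leaf.

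In emf2 callus against WT callus, SHR, SCR and JKD were each higher by more than 2-fold in their means, at 2.34, 2.54 and 2.06-fold, while SCL3 and SCL23 differed by 1.06 and 1.08-fold. None of the 5 members listed in both calli passed in limma after adjustment over 16185 genes, of which 16 passed, or 0.0989%. The differences were 1.28 ± 0.27 for SCR (SE, log2; unadjusted p = 0.00138, adjusted p = 0.153), 1.31 ± 0.41 for SHR (unadjusted p = 0.0123, adjusted p = 0.370) and 0.97 ± 0.32 for JKD (unadjusted p = 0.0209, adjusted p = 0.435). Their 95% intervals ran from 0.66 to 1.91, from 0.37 to 2.25 and from 0.20 to 1.74. SCR ranked at place 145 of 16185 by its p. At an unadjusted p under 0.05, 3 of 5 members were higher, against 4.57% of all genes, and 0 were lower. In either direction the share was 9.0% of all genes. The same 3 had all emf2 libraries above all WT callus libraries, as had 9.69% of all genes, and 1.68% did so with means at least 2-fold apart. Since the members were chosen with these values known, these shares describe them and are no test of the set. None of the marker genes listed in both calli passed for founder cells (3 genes), vascular tissue (3), root epidermis and cap (4) or the stem cell niche (6), and the summed levels overlapped for the last 3 lists. Of the niche markers, PLT1 alone was higher without overlap in emf2 callus, while the others overlapped. PLT1 was at 15.8, 24.1 and 9.61 RPKM in WT callus and at 26.3, 26.1 and 25.9 RPKM in emf2 callus. WER, an epidermis regulator, was at 2.83, 2.94 and 1.96 RPKM in WT callus and higher without overlap in emf2 callus, at 9.04, 4.82 and 6.26 RPKM (1.08, adjusted p = 0.223). RHD6 of the same list went the other way in its mean, from 22.1 RPKM in WT callus to 9.08 RPKM in emf2 callus, with overlap. CPC and SMB, also of that list, overlapped between the calli. Of the founder cell markers, WOX11 was lower without overlap, at 76.2, 86.4 and 100.3 RPKM in WT callus and 41.7, 36.3 and 36.1 RPKM in emf2 callus (-1.18, adjusted p = 0.0686). LBD16 and LBD18 overlapped, and LBD29 was listed in emf2 callus alone. The part of these markers in the result was not tested.

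SCL3 differed by 0.11 ± 0.31 (adjusted p = 0.954, 95% interval from -0.61 to 0.82) and SCL23 by 0.09 ± 0.23 (adjusted p = 0.949, interval from -0.45 to 0.62). These intervals do not reach a 2-fold change in either direction, on the log2(RPKM + 1) scale, which draws low genes such as SCL23 toward 0. NUC, not listed in emf2 callus, was not told apart from the 1 RPKM bound (-0.17 ± 0.12, adjusted p = 0.438), as were all but 4.63% of 518 genes listed in WT callus alone. WT callus replicate 2 was the library nearest to emf2 callus for SHR, SCR and JKD. Without it the differences in limma were 1.70 (adjusted p = 0.0891), 1.44 (adjusted p = 0.0801) and 1.32 (adjusted p = 0.0529), and 121 genes passed in all. Leaving out leaf replicate 3 brought SCR to an adjusted p of 0.0543 at an unchanged difference, with 62 genes passing. The count over all genes was 7 without WT callus replicate 1, 19 without replicate 3 of that group, and 4, 3 and 6 without emf2 callus replicates 1, 2 and 3. No single library left out brought a member past the threshold.

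In WT callus replicate 2 held the highest value for 5 of 6 listed members, as it did for 40.3% of all genes listed there, and replicate 3 held the lowest for 5 of 6, against 38.6% of all genes. The exception at both ends was NUC. In emf2 callus replicate 2 was highest for 4 of 5 and replicate 3 lowest for 4 of 5, against 30.5% and 37.4% of all genes, with JKD as the exception. The same replicates stood in that order on the second principal component within each callus, at -18.4, 13.3 and -41.8 in WT callus and at 20.3, 24.0 and 2.56 in emf2 callus. Whether this shared axis takes part in the difference between the calli was not tested.

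Compared with leaf, emf2 callus had higher SHR and SCL3 and lower SCL23. Of 4 members listed in both, 3 passed in limma, against 65.3% of 14693 genes (34.1% higher and 31.2% lower). The same 3 did not overlap between the groups, as 72.1% of all genes did not. SHR rose by 2.60 ± 0.41 (adjusted p = 0.000691), with means 6.65-fold apart, and SCL3 rose by 1.96 ± 0.31 (adjusted p = 0.000738), with means 4.08-fold apart. SCL23 fell by 0.74 ± 0.23 (adjusted p = 0.0223). SCR differed by 0.38 ± 0.27 (adjusted p = 0.247, 95% interval from -0.24 to 1.00), so that its level in emf2 callus could not be told from that in leaf. JKD was 2.07 ± 0.22 above the 1 RPKM bound for leaf (adjusted p = 0.000225), a test that 75.6% of 1953 genes listed in emf2 callus alone passed. NUC gave -0.33 ± 0.12 for the emf2 callus bound minus leaf (adjusted p = 0.0431), a test passed by 84.6% of 2001 genes listed in leaf alone. For JKD and NUC alike the listing fixed the direction. This comparison shares its libraries with both others, so its values are no independent evidence on them.

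The call for SCL23 was lost without leaf replicate 1 (-0.73, adjusted p = 0.0565), emf2 callus replicate 1 (-0.72, adjusted p = 0.0616) or emf2 callus replicate 3 (-0.67, adjusted p = 0.0708) in the limma fit, and that for NUC without leaf replicate 1 (-0.35, adjusted p = 0.100), leaf replicate 2 (-0.22, adjusted p = 0.215) or WT callus replicate 2 (-0.33, adjusted p = 0.0596). With library totals as the scaling, under which the median of all genes was 0.87, SCR was higher in emf2 callus than in leaf (1.27, adjusted p = 0.00180) and SCL23 was at 0.01 (adjusted p = 0.987).

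Ratios of members within a library do not depend on how libraries are scaled against each other. The ratio of SHR to SCR was 0.365, 0.355 and 0.400 in leaf, 2.02, 2.67 and 1.30 in WT callus and 2.17, 1.99 and 1.60 in emf2 callus. SCR thus outweighed SHR in every leaf library and SHR outweighed SCR in every callus library. The ratio was 5.14-fold higher in WT callus than in leaf and differed by 0.995-fold between the calli, where the ranges overlapped. In the ratio of SCR to SCL3, leaf libraries stood at 3.65, 2.25 and 3.51 and WT callus libraries at 0.356, 0.392 and 0.428, which is 7.85-fold lower. Against SHR, 48.5% of all genes had a lower ratio in WT callus than in leaf with no overlap. Against SCR, 49.6% had a higher ratio in WT callus than in leaf with no overlap, as SCL3 and SHR had.

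Between the calli, the 5 members formed 2 sets whose inner ratios overlapped. The ratio of SHR to JKD was 7.40, 6.14 and 5.90 in WT callus and 7.74, 8.89 and 5.30 in emf2 callus. That of SCL23 to SCL3 was 0.102, 0.0928 and 0.113 in WT callus and 0.100, 0.104 and 0.104 in emf2 callus, a difference of 0.01 ± 0.09 (SE, log2). Across the sets all 6 ratios of the 10 separated without overlap. The sets match the members that did and did not separate between these same libraries, so this largely restates that sorting. The ratio of SCR to SCL3 was 0.356, 0.392 and 0.428 in WT callus and 0.944, 0.916 and 0.931 in emf2 callus, a 2.38-fold shift. SCR to SCL23 was 3.49, 4.22 and 3.77 in WT callus and 9.40, 8.78 and 8.96 in emf2 callus, a 2.37-fold shift. SHR to SCL3 was 0.719, 1.05 and 0.557 in WT callus and 2.05, 1.82 and 1.49 in emf2 callus, a 2.37-fold shift. SCL3 to JKD went the other way, with 10.3, 5.87 and 10.6 in WT callus and 3.78, 4.88 and 3.56 in emf2 callus.

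Each separated ratio had p = 0.1 in the exact two-sided permutation test of 3 against 3 libraries, the smallest that this design allows, and 0.144 after adjustment over 26 pairs and contrasts, so none could pass. Separation from SCR or SHR was common among all genes, because these members themselves differ between the calli. Relative to SCR, 90.4% of all genes were lower in every emf2 callus library than in every wild-type one, and relative to SHR 60.2% were. SCL3 and SCL23 were among these genes, and JKD was not. For ratios to JKD the share over all genes was not computed.

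**Figure D3:**
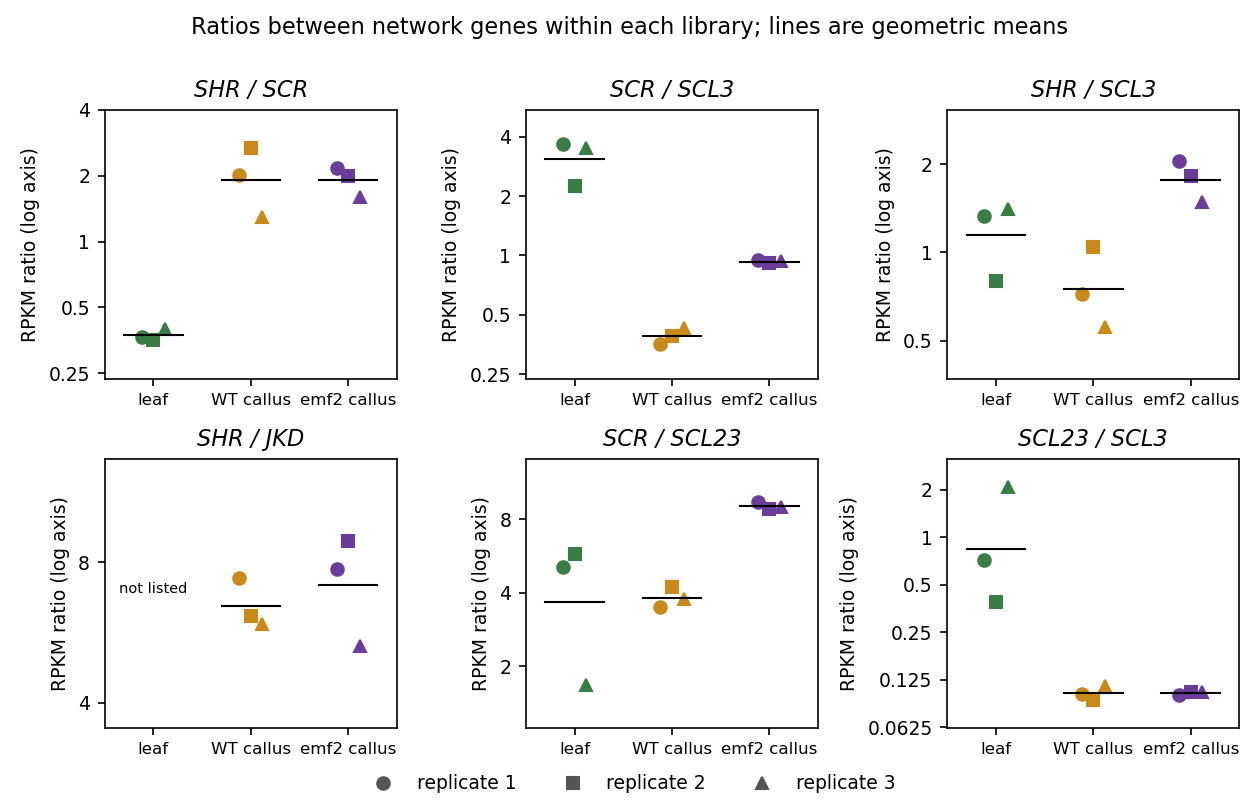
Ratio of the RPKM of pairs of members within each library (log axis) for leaf, WT callus and emf2 callus; symbols are replicates and lines geometric means. SHR to SCR lies below 1 in leaf and above 1 in both calli, and SCR to SCL3 and SCR to SCL23 separate the calli, while SHR to JKD and SCL23 to SCL3 overlap between them.

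The list of 14 partners, regulators and targets of SHR and SCR held 10 genes listed in leaf, and all 14 were listed in both calli. In WT callus against leaf 6 of 10 rose, 1 fell and 3 did not pass in limma, and the 4 genes listed in callus alone all passed against the 1 RPKM bound. Of all genes 33.6% rose and 31.8% fell, 65.4% in all, so 7 of 10 is near that share, and 69.4% of genes listed in WT callus alone passed the bound. None of the 4 could have come out lower, since their listing fixed the direction, so they add nothing to the count that rose. The median difference of the 10 was 0.93, against 0.06 over all genes. With 1 library left out, 5 or 6 rose and 1 fell. With library totals 8 rose and 1 fell, and the list's median was 1.71 against 0.82. HSFB4 (SCHIZORIZA), a heat shock factor relative that acts in root ground tissue and stem cell fate, rose from 1.39, 0.870 and 1.01 RPKM in leaf to 11.7, 20.1 and 4.76 RPKM in WT callus (2.47 ± 0.41, adjusted p = 0.000910). PHABULOSA (PHB), whose transcript is cleaved by the microRNA that SHR and SCR activate in the root endodermis, rose from 12.4, 12.1 and 5.97 RPKM to 45.5, 43.9 and 27.8 RPKM (1.87 ± 0.34, adjusted p = 0.00145). CYCD6;1, the D-type cyclin that SHR and SCR switch on for the formative division of the ground tissue, rose from 1.58, 2.25 and 0.960 RPKM to 6.12, 13.7 and 5.61 RPKM (1.80 ± 0.34, adjusted p = 0.00183). SUB (SCRAMBLED), the receptor-like kinase of root cell patterning, rose from 4.31, 4.52 and 1.68 RPKM to 11.3, 12.2 and 10.6 RPKM (1.53, adjusted p = 0.00132). TCP11, also known as TCP21, fell from 80.7, 84.1 and 99.5 RPKM to 4.07, 4.93 and 3.80 RPKM (-4.08 ± 0.14, adjusted p = 3.89e-07), and did so under every scaling.

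The 4 partners listed in callus alone included WOX5, the homeobox gene of the quiescent centre, with 22.3, 48.3 and 32.2 RPKM in WT callus and 49.7, 67.5 and 40.7 RPKM in emf2 callus. CKX3, a cytokinin oxidase gene bound by SHR in the root, was at 18.4, 52.5 and 26.6 RPKM and at 63.9, 50.4 and 49.1 RPKM. SUS4, a sucrose synthase, was at 133, 114 and 105 RPKM and at 98.7, 94.7 and 121 RPKM, and SLEEPY2 (SNEEZY), an F-box protein of gibberellin signalling, was between 2.60 and 4.06 RPKM in the calli. Between the calli these ranges overlapped for all 4.

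Between the calli 0 of 14 partners passed in limma. Ranges without overlap were seen for PHB, which reached 81.9, 106 and 55.7 RPKM in emf2 callus (1.02 ± 0.34, adjusted p = 0.402), and for CYCD6;1, which was at 4.95, 3.73 and 2.71 RPKM (-0.91 ± 0.34, adjusted p = 0.484). CYCD6;1 thus lay below WT callus, as did 8.89% of all genes without overlap, while SHR, SCR and JKD lay above. In either direction 18.6% of all genes did not overlap between the calli, so such ranges for PHB and CYCD6;1 among 14 partners were no exception. Against leaf, emf2 callus gave 6 higher, 1 lower and 3 not passed of 10, against 34.1% higher and 31.2% lower of all genes, with a median of 0.68 against 0.08 over all genes. The number of higher genes was 4 without leaf replicate 1, leaf replicate 3 or emf2 callus replicate 1. CYCD6;1 was among the higher ones (0.89 ± 0.34, adjusted p = 0.0459), a call lost with quantile normalization (0.73, adjusted p = 0.0947). It was also lost without WT callus replicate 1 (0.89, adjusted p = 0.0545), emf2 callus replicate 1 (0.72, adjusted p = 0.142), emf2 callus replicate 2 (0.89, adjusted p = 0.0963), leaf replicate 1 (0.90, adjusted p = 0.0930) or leaf replicate 3 (0.70, adjusted p = 0.125).

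Of 14 genes of endodermis differentiation, most were in no table. CASP1 to CASP5, which build the Casparian strip membrane domain, ESB1, PER64, GSO1 and 3 further genes did not exceed a mean of 1 RPKM anywhere. The defining markers of a mature endodermis were thus at most 1 RPKM on average in leaf and in both calli, all of which held SHR and SCR. A mean of bulk tissue does not show whether a few cells expressed them. MYB36, the regulator of the Casparian strip genes that lies downstream of SCR in the root, was not listed in leaf and was at 12.2, 6.87 and 1.88 RPKM in WT callus and 2.88, 2.82 and 3.11 RPKM in emf2 callus. It passed against the leaf bound in WT callus (1.74 ± 0.37, adjusted p = 0.00529), and in emf2 callus (0.98 ± 0.37, adjusted p = 0.0480), and the calli overlapped (-0.77, adjusted p = 0.741). The call in emf2 callus was lost without WT callus replicate 2, leaf replicate 1, leaf replicate 2 or any 1 of the emf2 callus libraries, at 0.94 to 1.00 with adjusted p from 0.0529 to 0.134. RBOHF, a plasma membrane NADPH oxidase with roles in many tissues, was at 10.9, 16.4 and 23.6 RPKM in leaf and fell to 8.53, 4.24 and 6.67 RPKM in emf2 callus (-1.24, adjusted p = 0.0107), or -1.32 relative to the median of all genes. With library totals it was at -0.40 (adjusted p = 0.302) and at -1.27 relative to that median. AT5G18460 was listed in leaf alone. Its deposited name calls it only a carboxyl-terminal peptidase, so no label here bears out its place among the endodermis genes.

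**Figure D4:**
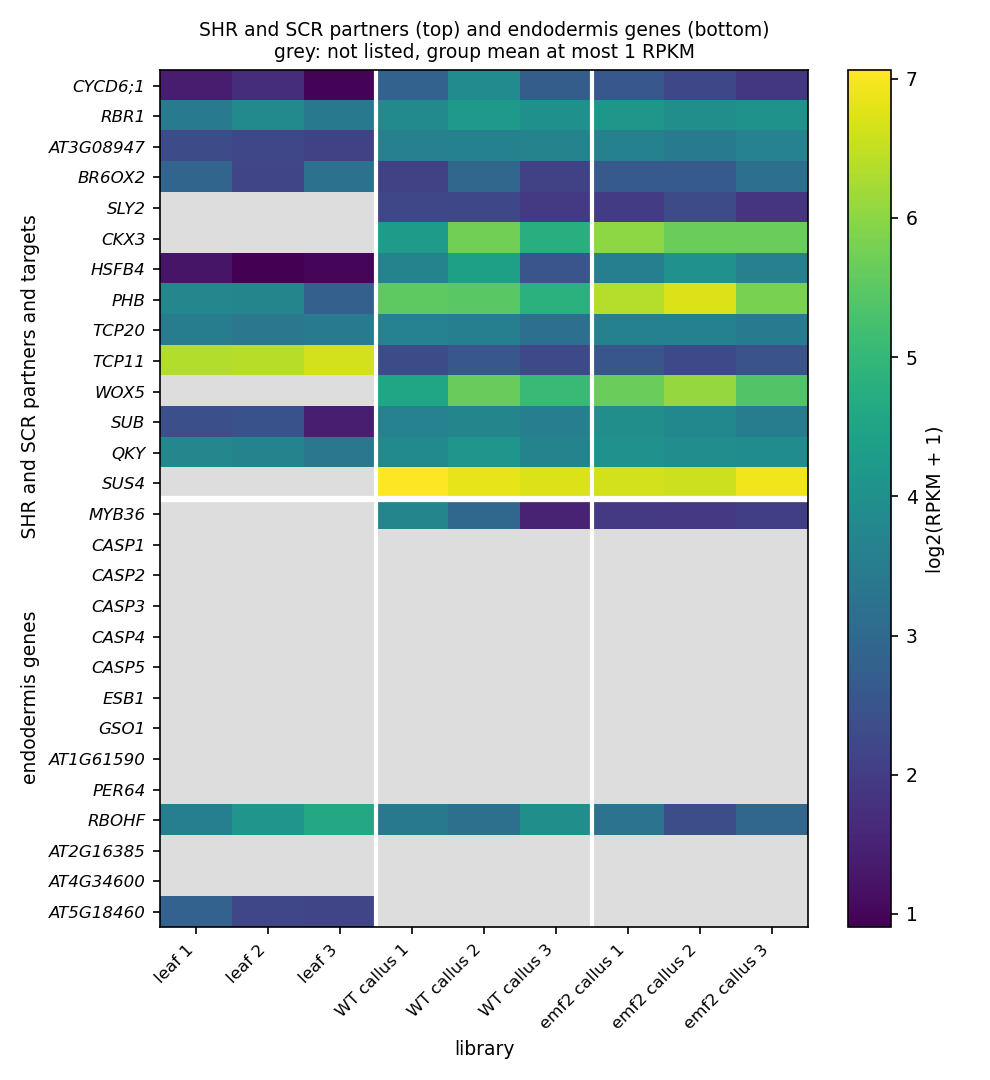
Heat map of log2(RPKM + 1) in the 9 libraries for 14 partners, regulators and targets of SHR and SCR (top) and 14 endodermis genes (bottom); grey marks genes that a table does not list. The 14 partners are all listed in both calli, TCP11 has its highest values in leaf, and the CASP genes, ESB1, GSO1 and PER64 are grey throughout.

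The relatives of the members took other courses. Of 13 further IDD genes, 11 were listed in leaf, 5 in WT callus and 6 in emf2 callus. In WT callus against leaf, 1 rose, 3 fell and 1 did not pass in limma, against 65.4% of all genes called, and 5 of the 6 genes listed in leaf alone passed against the bound, against 84.3% of all genes listed there alone. The gene that rose, IDD2, was at 1.83, 1.43 and 7.81 RPKM in leaf and 8.66, 12.6 and 10.4 RPKM in WT callus (1.54, adjusted p = 0.0144), and without leaf replicate 1 (1.31, adjusted p = 0.0530) or leaf replicate 2 (1.19, adjusted p = 0.0509) it did not pass, so that 0 rose. In emf2 callus against leaf 0 of 6 rose and 4 fell, against 34.1% and 31.2% of all genes, or 65.3% called in all. Of 5 genes listed in leaf alone, 4 passed against the bound, against 84.6% of all such genes. Without leaf replicate 3, 1 rose and 5 fell, and without leaf replicate 1 or 2 or emf2 callus replicate 1 or 2, 3 fell. With library totals, which lift the median of all genes to 0.82 and 0.87, 2 rose and 3 fell in WT callus and 2 rose and 2 fell in emf2 callus. Relative to the median of all genes the list's median was -1.65 and -0.97 with the deposited scaling and -1.76 and -1.02 with library totals. IDD7 fell from 22.4, 22.2 and 14.4 RPKM in leaf to 2.20, 5.26 and 3.98 RPKM in WT callus (-2.13, adjusted p = 0.000208). BALDIBIS (IDD9), which acts beside JKD in root ground tissue, was at 9.69, 14.6 and 21.2 RPKM in leaf, was not listed in WT callus and was at 1.90, 2.36 and 1.46 RPKM in emf2 callus, where it fell against leaf (-2.42 ± 0.28, adjusted p = 0.000455). JKD, in contrast, was listed in callus and not in leaf. IDD11 was at 7.92, 7.06 and 5.07 RPKM in leaf, 1.15, 0.957 and 1.52 RPKM in WT callus and 4.12, 3.49 and 4.91 RPKM in emf2 callus. It fell in WT callus (-1.79 ± 0.18, adjusted p = 6.05e-05), and between the calli its difference of 1.23 had an adjusted p of 0.0616. IDD11 passed with library totals, where 1 of the 5 IDD genes listed in both calli was higher, and likewise without leaf replicate 3.

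Of 27 other GRAS genes, 22 were listed in leaf and WT callus, where 4 rose, 9 fell and 9 did not pass, near the 65.4% called of all genes. Their median was -0.18 against 0.06 over all genes. With library totals, which lift all genes, 11 rose and 6 fell, and relative to the median of all genes the list's median was -0.25 with the deposited scaling and -0.20 with library totals. SCL13, a GRAS gene with a role in phytochrome signalling, was among those that fell under either scaling, from 237, 289 and 249 RPKM to 22.7, 26.9 and 24.4 RPKM (-3.34 ± 0.14, adjusted p = 6.20e-07). SCL28 rose from 1.79, 2.01 and 0.811 RPKM to 8.59, 14.2 and 6.58 RPKM (2.06 ± 0.31, adjusted p = 0.000537). HAM3, a HAIRY MERISTEM regulator, fell from 53.2, 51.3 and 28.0 RPKM to 3.32, 4.57 and 1.70 RPKM (-3.44 on the log2 scale). RGL3, a DELLA protein gene, rose from 3.13, 4.39 and 1.82 RPKM to 13.2, 20.8 and 8.83 RPKM (1.87, adjusted p = 0.00313). Between the calli 0 of 23 passed, and 0 of the GRAS members SHR, SCR, SCL3 and SCL23 did. RGA, the DELLA repressor that SCL3 counters, fell from 74.7, 77.8 and 54.3 RPKM in leaf to 21.0, 17.2 and 10.9 RPKM in WT callus (-2.04, adjusted p = 0.000174).

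Among 11 genes of gibberellin synthesis and perception, 5 were listed in leaf and WT callus, of which 4 rose and 0 fell, against 33.6% and 31.8% of all genes, with a median of 0.59 against 0.06. The number that rose was 2 without leaf replicate 1, leaf replicate 2, WT callus replicate 1 or WT callus replicate 2. The receptor gene GID1B rose from 9.41, 12.5 and 7.93 RPKM to 47.5, 64.8 and 35.4 RPKM (2.18 ± 0.27, adjusted p = 0.000201). GA3ox1, which makes active gibberellin, was listed in leaf alone, at 4.70, 10.3 and 3.54 RPKM. GA3ox2, a second gibberellin 3-oxidase gene, was instead listed in both calli and not in leaf. It was at 2.20, 2.17 and 0.931 RPKM in WT callus and at 1.01, 2.16 and 1.92 RPKM in emf2 callus. In WT callus it did not pass against the leaf bound in limma (0.43, adjusted p = 0.0821). GA20ox1 was listed in emf2 callus alone. GA2ox2, which inactivates gibberellin, was at 20.7, 33.7 and 23.9 RPKM in WT callus and at 12.6, 9.32 and 7.61 RPKM in emf2 callus (-1.32, adjusted p = 0.0884).

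Over the 9 libraries and 12537 genes listed in all 3 tables with a mean of at least 5 RPKM in 1 group, the pattern of SHR on log2(RPKM + 1) was most like that of RHA2B, which encodes a RING-H2 finger protein (Pearson r = 0.989), UGT76C2, a UDP-glucosyl transferase (r = 0.988), and APT5, an adenine phosphoribosyltransferase (r = 0.985). SCR was most like ICR1 (r = 0.951), MAF1 (r = 0.934) and DOF6 (r = 0.929). DOF6 had means of 4.44 RPKM in leaf, 1.18 RPKM in WT callus and 6.41 RPKM in emf2 callus. SHR and SCR themselves had r = 0.398, SHR and SCL3 r = 0.871, and SHR and SCL23 r = -0.57. All of these rest on 9 libraries in 3 groups with shared scaling and are descriptions.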

How the data were processed

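Polyadenylated RNA of 9 libraries was measured. The authors' deposited values are RPKM in 1 table per group, restricted to genes with a group mean above 1 RPKM, per the file headers. FastQC, cutadapt, TopHat and TAIR10 are named in the submitters' processing notes, and the read counter is not given in the sources used here. Members and gene lists were chosen with earlier results of these data known. Whole reads were recovered from ratios between libraries for 18855 genes (99.97%, relative tolerance 5e-13), with the annotated span setting the multiple. They gave library totals and depth, and a count test on them was not run. The ratio of the deposited RPKM denominators to these totals averaged 0.680 in leaf, 1.27 in WT callus and 1.30 in emf2 callus. Log2(RPKM + 1) values, which understate changes of low genes, were fitted in limma 3.58.1 (R 4.3.3), with 1 coefficient per group over the libraries that list a gene, a trend-moderated spread, and Benjamini-Hochberg adjustment within each contrast over all genes listed in both groups. Genes listed in 1 group were tested against 1 RPKM, adjusted separately, and the listing itself fixed the direction of these tests. All tests were two-sided with a threshold of 0.05, and p-values measure the spread between these libraries. Ratios between members were compared by exact permutation (scipy 1.17.1). From each list, genes were named among the up to 3 per contrast and direction with the largest changes that passed without overlap, or by level where a table does not list them. RGA, WER and the other marker genes lie outside this rule and were chosen after their values were seen. Alternatives were a pseudocount of 0.25 RPKM, a filter at a mean of 2 RPKM, quantile normalization, library totals, a replicate block, 2 groups alone, a bound of 0.5 RPKM and each library left out.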

Additional observations from a re-analysis of the deposited data

How the results depend on the processing

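Of 267 recomputed member values, 240 kept their direction and side of the threshold, 18 lost the call, 3 gained it and 6 changed sign. With library totals, in WT callus against leaf, SCR was at -0.060, SCL23 at -0.11 and NUC turned to 0.35, leaving 2 members called, and in emf2 callus against leaf SCR was called at 1.27, SCL23 turned to 0.0051 and NUC against the bound to 0.21. Quantile normalization gave -0.63 (adjusted p = 0.0591) and 0.80 (adjusted p = 0.0232) for SCR in these limma contrasts and was not applied to the bound tests. Replicate numbers were not used as pairs in the main fit. Same-numbered libraries of different groups correlated from -0.21 to 0.61, above 0.1 in 5 of 9 pairs, and differently numbered ones from -0.50 to 0.33. The highest value joined replicate 3 of the 2 calli, and whether libraries of 1 number share a batch was not tested. With the replicate block NUC against the bound stayed at -0.33 in limma (adjusted p = 0.0668), as it did with 2 groups alone (adjusted p = 0.0526). The bound tests of emf2 callus against leaf passed 1 member, not 2, under the filter, library totals, the block and 2 groups alone. An assumed bound of 0.5 RPKM gave NUC -0.58 between the calli in limma (adjusted p = 0.0115), so 1 member passed. The listing limit allows a mean of up to 1 RPKM, so this pass rests on the assumed value and shows no difference.

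With 1 library left out, the ranges were 0.90 to 1.71 for SHR and -1.18 to -0.67 for SCR in WT callus against leaf, where 2 to 4 members passed. Between the calli they were -0.023 to 0.16 for SCL23 and -0.11 to 0.27 for SCL3, the sign turning for both without WT callus replicate 3 and for SCL23 also without emf2 callus replicate 2 (-0.0028). In emf2 callus against leaf they were -0.97 to -0.51 for SCL23 and -0.42 to -0.22 for NUC, with 1 to 2 members passing the bound. Over all genes between the calli, 45 passed under the filter, 51 with quantile normalization, 31 with library totals, 9 with the block and 3 to 121 with 1 library left out, against 16. The causes of these shifts were not tested, and a count test on the recovered reads was not run. Of JKD in leaf and NUC in emf2 callus the tables give only the bound of 1 RPKM, set by the listing limit and not by depth.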
